A study of Mus musculus with 6 samples.

Results

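The platelet-derived growth factor (PDGF) family was followed as 6 genes, the 4 ligand genes Pdgfa, Pdgfb, Pdgfc and Pdgfd and the 2 receptor genes Pdgfra and Pdgfrb, of 28000 genes in the matrices. They were chosen by name. The study made 6 single-cell RNA libraries from dorsolateral and flank skin of CD1 mouse embryos at embryonic day (E) 13.5 and E14.5, with skin of 3 to 4 embryos pooled in each and the cells stained with DAPI and sorted. There were 2 control libraries per stage, labelled WT and called control 1 and control 2 here (control 2 is the one titled a replicate), and 1 library per stage labelled LOF. LOF embryos carried the genotype PDGFRalphaCreER(Lo);beta-catfl/fl;mTmG, in which a tamoxifen-inducible Cre under Pdgfra control acts on floxed beta-catenin and switches the mTmG reporter from membrane Tomato to membrane GFP. Tamoxifen was given by gavage to dams at E11.5. The labels state no tamoxifen for the controls, so genotype and drug cannot be told apart. Cre is driven from a member, Pdgfra, so it is meant to act in cells that express that gene.

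PDGF chains pair into disulphide-linked dimers that bring receptor tyrosine kinases of class III together at the cell surface. PDGF-A and PDGF-C act through PDGFR-alpha, PDGF-B can act through both receptors, and PDGF-D acts mainly through PDGFR-beta. PDGF-C and PDGF-D are secreted in a latent form and activated when a protease removes an amino-terminal CUB domain. In skin, epidermal PDGF-A reaches PDGFR-alpha on dermal fibroblasts, and endothelial PDGF-B recruits pericytes that carry PDGFR-beta.

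The proximal promoters of 3 members are shown because the results turn on an epidermal ligand (Pdgfa), a second ligand of keratinocytes (Pdgfc) and the dermal receptor (Pdgfra). They are RefSeq sequence of build GRCm38.p6, read 5′ to 3′ on the gene's strand, and hold no base of the gene's own exons. Capitals mark the only match to any of the motifs searched.
Pdgfa promoter: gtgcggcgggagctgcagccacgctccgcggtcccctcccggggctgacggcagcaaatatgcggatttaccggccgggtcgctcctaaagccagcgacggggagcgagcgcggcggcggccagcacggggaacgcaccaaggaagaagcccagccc
Pdgfc promoter: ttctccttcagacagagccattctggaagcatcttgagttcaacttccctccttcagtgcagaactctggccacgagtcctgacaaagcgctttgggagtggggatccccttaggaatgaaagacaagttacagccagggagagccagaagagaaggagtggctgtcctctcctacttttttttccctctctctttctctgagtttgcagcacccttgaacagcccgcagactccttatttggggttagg
Pdgfra promoter: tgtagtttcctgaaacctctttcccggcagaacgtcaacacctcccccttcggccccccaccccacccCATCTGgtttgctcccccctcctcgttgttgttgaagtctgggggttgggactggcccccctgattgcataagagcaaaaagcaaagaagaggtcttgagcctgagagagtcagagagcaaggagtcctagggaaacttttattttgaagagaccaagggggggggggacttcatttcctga
The Pdgfa window is chr5:138995038-138995194 on the minus strand, 157 bases at 72% GC. It lies before the RefSeq start used but inside the longer span of the gene in the annotation, chr5:138976014-138997370. The other 93 bases before that start lie in exons of the gene itself and were left out, and the window overlaps an exon of the antisense gene 6330403L08Rik. The Pdgfc window is chr3:81036166-81036415 on the plus strand, 250 bases at 50.8% GC. The Pdgfra window is chr5:75152001-75152250 on the plus strand, 250 bases at 54.4% GC. Both strands were searched for 4 motifs, and the single match was an E-box in the Pdgfra window. The E-box was searched as CANNTG, which 66.2% of 32851 promoter windows of 250 bases held. The GC box was searched as GGGCGG, held by 32.7% of these windows. The TATA element was searched as TATAAA, held by 12.4%. The AP-1 site was searched as TGANTCA, held by 6.75%.

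Cells were put into classes by summed UMIs (unique molecular identifiers, 1 per captured transcript) of marker genes. Fibroblasts had at least 15 UMIs of Col1a1, Col1a2 and Col3a1, and keratinocytes at least 10 of Krt5, Krt14, Krt15 and Epcam. A level below is CPM, the gene's UMIs per 1000000 UMIs of all cells of the class in 1 library, and brackets around a single level hold the exact 95% Poisson interval, which covers counting error only. The 40653 cells kept, 5850 to 8922 per library from 53461986 to 86446575 UMIs, held 22481 fibroblasts, 7582 keratinocytes, 2644 muscle cells, 860 Schwann cells, 798 macrophages, 564 pericytes, 523 mast cells, 297 endothelial cells and 176 melanoblasts. Markers not used for the gates stood where the names put them: Lum was at 1249 CPM in fibroblasts against 21.1 CPM in keratinocytes, Trp63 at 211 CPM in keratinocytes against 1.99 CPM in fibroblasts, Sox18 at 41.8 CPM in endothelial cells and Cspg4 at 37.2 CPM in pericytes. Pericytes also held Lum at 321 CPM and a median of 45.5 UMIs of the 3 fibroblast collagens. Pairs of libraries shared 44 to 101 cell barcodes. E13.5 control 2 held only 15 pericytes.

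Transcripts of the reporter go against labels of WT. The reporter's eGFP was at 119 and 93.4 CPM in fibroblasts of E13.5 control 2 and E14.5 control 2, both labelled WT, against 3.00 and 5.28 CPM in control 1 of each stage and 351 and 322 CPM in the E13.5 and E14.5 LOF libraries. A UMI of eGFP was found in 54.4% and 46.7% of fibroblasts of the control 2 libraries and in 48.0% and 59.9% of the LOF libraries. The other reporter transcript, tdTomato, averaged 933 CPM (SD 148) in keratinocytes of E13.5 controls and 173 CPM (SD 189) in those of E14.5 controls. Over the 6 libraries it was at 39.6 to 1038 CPM in keratinocytes, 3.10 to 21.2 CPM in fibroblasts and 2.86 to 21.0 CPM in muscle cells. Why tdTomato differed between classes and libraries was not tested. Controls below are the libraries labelled so, and the stage and genotype results for Pdgfc and Pdgfra in fibroblasts are also given without the control 2 libraries. Earlier results of these data grouped control 2 of both stages together, and each LOF library with control 1 of its stage. These 3 pairs are called inferred batches here, and the labels name no batch. Ctnnb1, the targeted gene, was at 178 to 195 CPM in control and at 249 and 199 CPM in LOF fibroblasts, but a 3′ tag outside the floxed exons does not check the deletion.

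Pdgfa was an epidermal transcript at both stages. In keratinocytes it stood at 493 and 533 CPM in E13.5 controls, 457 and 506 CPM in E14.5 controls, and 563 and 463 CPM in the E13.5 and E14.5 LOF libraries. These libraries overlapped across stage and genotype, and keratinocytes held 69.8% of all Pdgfa UMIs (61.7% to 75.0% per library). A UMI of Pdgfa was found in 85.2% to 96.8% of keratinocytes, and in 64.6% to 76.0% after thinning every cell to 3000 UMIs. In fibroblasts the level was 11.2 to 16.1 CPM over the 6 libraries. Pdgfa was 41.1-fold higher in keratinocytes than in fibroblasts (log2 5.36, SE 0.10, edgeR adjusted p = 2.99e-08), in a comparison where 75.1% of genes tested passed. Krt14 in fibroblasts was 0.764% to 1.82% of its keratinocyte level, while Pdgfa was 2.07% to 3.19% of its own. What free RNA added to the fibroblast level was not tested.

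Muscle cells, Schwann cells and pericytes also held Pdgfa. In muscle cells it was at 159 and 194 CPM in E13.5 controls, 249 and 265 CPM in E14.5 controls, and 204 and 216 CPM in the LOF libraries, 19.2-fold above fibroblasts (log2 4.26, SE 0.11, edgeR adjusted p = 4.25e-09, 70.3% of genes passed). Both E14.5 controls exceeded both E13.5 controls, and the LOF libraries lay between them. In Schwann cells, the glia of peripheral nerves, the 4 control libraries held 142, 121, 226 and 240 CPM and the LOF libraries 92.5 and 206 CPM, 12.4-fold above fibroblasts (log2 3.63, SE 0.18, edgeR adjusted p = 1.02e-06, 49.1% passed). The E14.5 Schwann libraries were all above the E13.5 ones. Pericytes of the 5 libraries with at least 20 of them held 76.1 to 107 CPM, 7.34-fold above fibroblasts (log2 2.88, SE 0.13, edgeR adjusted p = 5.94e-10, 30.2% passed). Endothelial cells (3.84 to 19.0 CPM), melanoblasts of 20 or more cells (6.77 to 29.2 CPM), macrophages (1.76 to 12.8 CPM) and mast cells (0 to 13.3 CPM) overlapped each other and the fibroblast range. The calls of Pdgfa as lower in endothelial cells (log2 -0.77, SE 0.30, edgeR adjusted p = 0.0322, 48.9% passed) and in macrophages (-1.17, SE 0.34, edgeR adjusted p = 0.00789, 69.6% passed) than in fibroblasts turned to 0.28 and 0.79 when classes were taken from clusters. The endothelial call was also lost without E14.5 control 1 (adjusted p = 0.132), E13.5 LOF (0.0751) or E14.5 LOF (0.106), in edgeR.

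**Figure D1:**
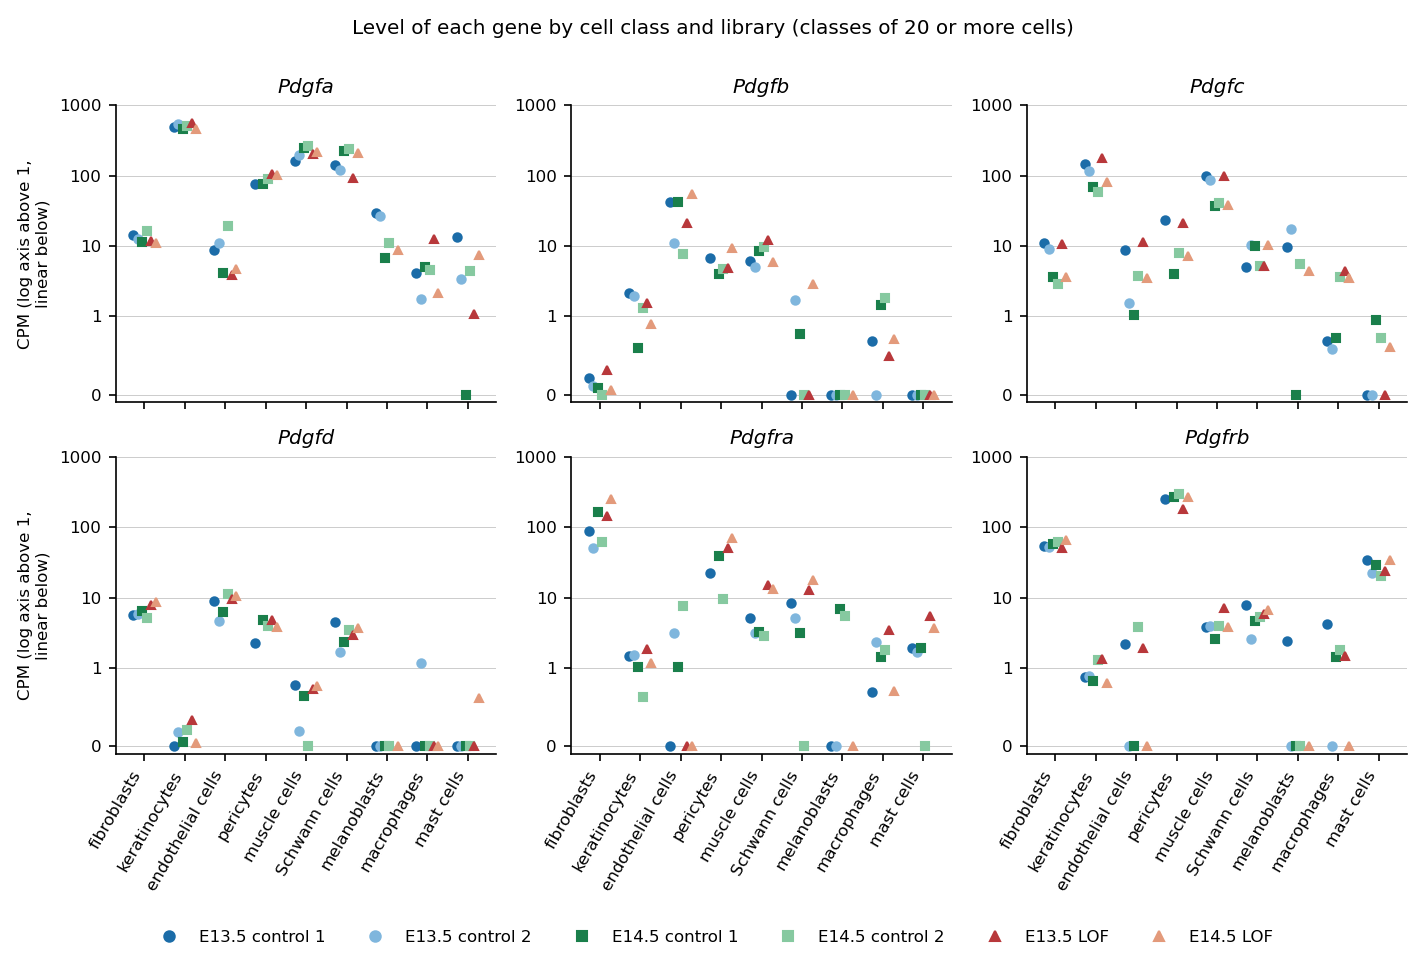
Level of each PDGF gene (CPM, vertical axis, logarithmic above 1 and linear below) in 9 cell classes (horizontal axis). Each point is 1 library, drawn where it had at least 20 cells of the class: Pdgfa and Pdgfc are highest in keratinocytes and muscle cells, Pdgfb in endothelial cells, Pdgfra in fibroblasts and Pdgfrb in pericytes.

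Within the epidermis, Pdgfa was low in the keratinocytes with most suprabasal transcripts. Keratinocytes were split by their UMIs of Krt1, Krt10, Krtdap and Sbsn, genes of the differentiating layers above the basal one. The keratinocyte gate held 444 of 1352 cells of cluster 13 and 427 of 960 cells of cluster 17, both led by Krtdap. Keratinocyte values here thus leave out most cells of these 2 clusters. All cells of clusters 13 and 17 held Pdgfa at 28.6 and 92.15 CPM. Pdgfa was at 508 to 589 CPM over the 12 library values with 0 to 1 or with 2 to 9 such UMIs. At 10 to 49 UMIs it was at 114 and 83.2 CPM in E13.5 control 1 and E13.5 LOF, with 26 and 21 cells, and at 321, 436 and 217 CPM in E14.5 controls 1 and 2 and E14.5 LOF. At 50 or more UMIs, a step that only the 3 E14.5 libraries filled with 20 cells, it was at 33.6, 66.9 and 43.9 CPM. Every one of these step values lay below the lower steps of its own library. Keratinocytes with at least 5 UMIs of Mki67, Top2a, Cenpf and Ube2c, genes of dividing cells, held 495 to 626 CPM against 375 to 482 CPM in the rest, and were higher in 6 of 6 libraries. Neither group was split by suprabasal UMIs, so what the cells low in Pdgfa added to this contrast was not tested. Placode-like keratinocytes, with at least 3 UMIs of early hair placode genes such as Dkk4, Edar and Shh, held 403 to 508 CPM against 463 to 565 CPM in the others, and were lower in 5 of 6 libraries (496 against 492 CPM in E13.5 control 1).

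Pdgfb marked the endothelium at a low level. Endothelial cells held 42.1 [25.3 to 65.7] and 10.99 [4.42 to 22.6] CPM in E13.5 controls 1 and 2 and 42.4 [30.5 to 57.6] and 7.61 [0.922 to 27.5] CPM in E14.5 controls 1 and 2. The E13.5 and E14.5 LOF libraries held 21.1 [10.5 to 37.8] and 55.6 [40.8 to 73.9] CPM. These values rest on 2 to 47 UMIs in 27 to 69 cells, and the control 2 libraries were the lowest at both stages. Fibroblasts were at 0 to 0.314 CPM. Pdgfb was 216-fold higher in endothelial cells than in fibroblasts (log2 7.76, SE 0.51, edgeR adjusted p = 7.21e-13, higher in 6 of 6 libraries), a fold that depends on the few fibroblast UMIs, 33 in all libraries.

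The lymphatic endothelium accounts for a share of the class. Lymphatic markers (Prox1, Lyve1, Ccl21a, Mmrn1 and Flt4, a split chosen after seeing the data) reached at least 3 UMIs in 104 endothelial cells, which held Pdgfb at 22.2 [15.1 to 31.5] CPM over all libraries, against 42.0 [34.0 to 51.2] CPM in the other 193. Per library the marked cells were lower in 5 of 6 and higher in E14.5 LOF, at 67.9 against 52.6 CPM. Outside the endothelium, muscle cells held Pdgfb at 5.12 to 12.4 CPM, 62.3-fold above fibroblasts (log2 5.96, SE 0.35, edgeR adjusted p = 2.23e-07), and pericytes at 3.96 to 9.51 CPM in the 5 libraries tested, 45.0-fold above them (log2 5.49, SE 0.58, edgeR adjusted p = 2.66e-06). Of the 767 Pdgfb UMIs, muscle cells held 43.8% (25.3% to 67.3% per library) and endothelial cells 16.6% (3.03% to 31.3%). In E14.5 LOF endothelial cells held more of them than muscle cells, 47 against 38 UMIs.

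Pdgfc shared the epidermal and muscle pattern. In keratinocytes it was at 145 and 117 CPM in E13.5 controls, 69.1 and 57.6 CPM in E14.5 controls, and 181 and 80.3 CPM in the LOF libraries, 17.6-fold above fibroblasts (log2 4.14, SE 0.13, edgeR adjusted p = 1.1e-07). In muscle cells it was at 99.6 and 85.8 CPM, 36.6 and 41.1 CPM, and 98.4 and 38.6 CPM in the same order, 11.8-fold above fibroblasts (log2 3.56, SE 0.09, edgeR adjusted p = 1.15e-09). In pericytes it was 1.99-fold above fibroblasts (log2 0.996, SE 0.22, edgeR adjusted p = 0.00252). Chondrocytes held it at 45.5 and 20.3 CPM in E13.5 control 1 and E13.5 LOF, above the fibroblasts of both libraries. Keratinocytes and muscle cells held less in each E14.5 library than in each E13.5 library. Schwann cells showed no such order, at 4.97 and 10.2 CPM in E13.5 controls, 10.1 and 5.21 CPM in E14.5 controls, and 5.24 and 10.2 CPM in the LOF libraries. Keratinocytes held 59.5% of Pdgfc UMIs, muscle cells 19.8% and fibroblasts 9.80%. Across the suprabasal steps, Pdgfc at E14.5 was at 79.1, 59.3 and 86.8 CPM with 0 to 1 UMIs, at 78.2, 74.9 and 83.2 CPM with 10 to 49, and at 22.7, 26.8 and 25.6 CPM with 50 or more, in controls 1 and 2 and LOF. At E13.5 it was at 152 and 187 CPM with 0 to 1 UMIs and at 74.3 and 83.2 CPM with 10 to 49, in control 1 and LOF. The 10 to 49 step was thus low at E13.5 for both ligands, and at E14.5 for Pdgfa but not for Pdgfc. That difference between the ligands was not tested.

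**Figure D2:**
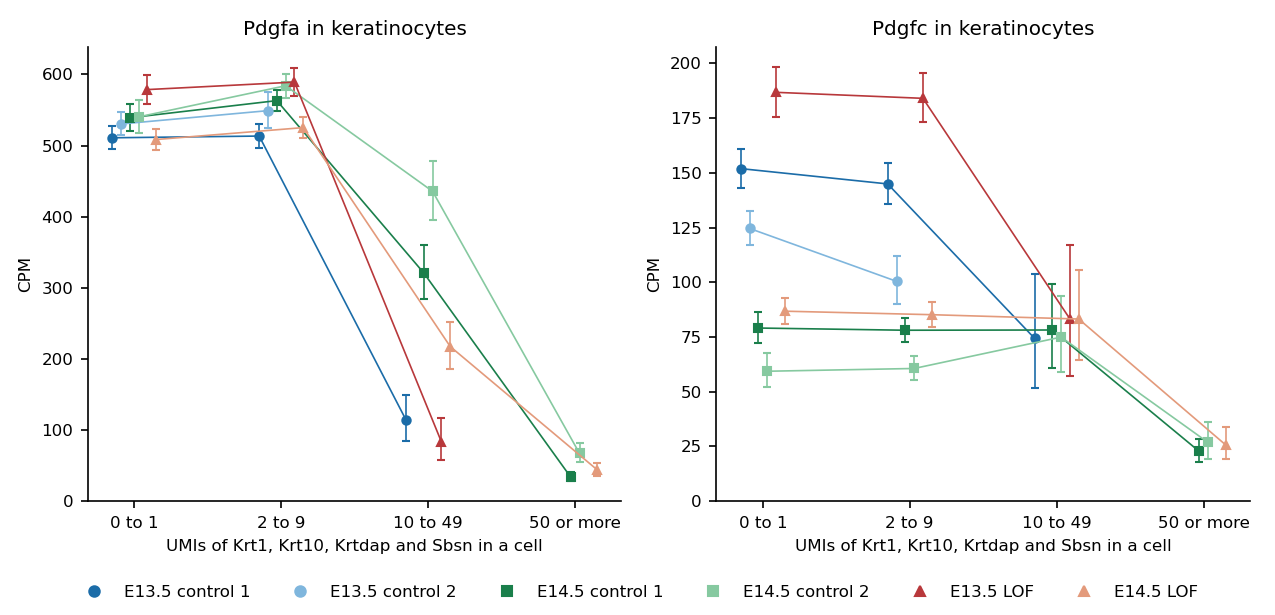
Level of Pdgfa (left) and Pdgfc (right) in keratinocytes (CPM, vertical axis) by the summed UMIs of Krt1, Krt10, Krtdap and Sbsn in a cell (horizontal axis). Each point is 1 library with at least 20 cells in the step and bars are exact 95% Poisson intervals: both ligands are lowest at 50 or more UMIs, and Pdgfa is at 83.2 to 436 CPM at 10 to 49.

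Pdgfd was low in every class and its UMIs were mostly in fibroblasts. These held 5.69 and 5.93 CPM in E13.5 controls, 6.48 and 5.21 CPM in E14.5 controls, and 7.76 and 8.54 CPM in the LOF libraries, and these cells carried 87.6% of its 1639 UMIs. Endothelial cells held 4.71 to 11.4 CPM, which did not pass against fibroblasts (log2 0.28, SE 0.31, edgeR adjusted p = 0.486). Pericytes held 2.24 to 4.86 CPM. Keratinocytes were at 0 to 0.340 CPM, from 0 to 4 UMIs per library, 51.8-fold below fibroblasts (log2 -5.70, SE 0.39, edgeR adjusted p = 3.61e-06). Muscle cells were 9.53-fold below fibroblasts (log2 -3.25, SE 0.26, edgeR adjusted p = 1.83e-06) and Schwann cells 2.12-fold (log2 -1.08, SE 0.27, edgeR adjusted p = 0.0037). Macrophages held Pdgfd in 1 of 6 libraries, at 1.18 CPM. The call against pericytes (log2 -0.71, SE 0.26, edgeR adjusted p = 0.049) was lost in 9 of 14 alternatives, among them leaving out any 1 of the 5 libraries tested (adjusted p = 0.067 to 0.228). Its size also moved with the gate, to log2 -1.95 with doubled gates (edgeR adjusted p = 0.00175) and -3.65 with cluster-based classes (edgeR adjusted p = 3.31e-06).

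Pdgfra was the fibroblast receptor. In fibroblasts it was at 87.4 and 51.0 CPM in E13.5 controls 1 and 2, 166 and 62.4 CPM in E14.5 controls 1 and 2, and 142 and 253 CPM in the E13.5 and E14.5 LOF libraries. Control 2 was the lower control at each stage, and each LOF library was above both controls of its stage. Fibroblasts held 91.4% of Pdgfra UMIs (78.6% to 94.8% per library). In E13.5 control 2, another 16.6% were in 860 cells of no class, at 60.5 CPM, where eGFP stood at 120 CPM. A UMI of Pdgfra was found in 53.8% and 32.4%, 74.3% and 34.7%, and 70.2% and 78.2% of fibroblasts in the same library order. After thinning to 3000 UMIs the shares were 22.9% and 13.7%, 39.04% and 16.8%, and 34.1% and 51.2%, with the same 2 libraries lowest.

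Pericytes held less Pdgfra than fibroblasts, at 22.4 CPM in E13.5 control 1, 39.1 and 9.58 CPM in E14.5 controls, and 50.3 and 70.3 CPM in LOF libraries, 3.71-fold lower (log2 -1.89, SE 0.12, edgeR adjusted p = 2.81e-08), and log2 -2.83 with doubled gates. As in fibroblasts, E14.5 control 2 was the lowest of these 5 libraries and E14.5 LOF the highest. Chondrocytes held Pdgfra at 43.3 and 92.4 CPM in E13.5 control 1 and E13.5 LOF, above the pericytes of both libraries. Muscle cells held 2.86 to 5.18 CPM in controls and 15.0 and 13.4 CPM in LOF libraries, 15.0-fold below fibroblasts (log2 -3.91, SE 0.27, edgeR adjusted p = 8.28e-06), and Schwann cells 0 to 8.29 CPM in controls and 12.8 and 17.5 CPM in LOF libraries. Muscle cells carried a median of 7 and Schwann cells of 5 UMIs of the 3 fibroblast collagens. With doublets removed the Pdgfra difference from fibroblasts was larger, log2 -4.94 in muscle cells and -5.26 in Schwann cells. Keratinocytes were at 0.623 to 1.87 CPM, 94.1-fold below fibroblasts (log2 -6.56, SE 0.30, edgeR adjusted p = 6.76e-07). That is 0.460% to 2.98% of the fibroblast level, where the collagen Col1a1 stood at 0.657% to 1.99% of its own, and what free RNA added was not tested. With cluster-based classes the difference was log2 -5.51 in keratinocytes. Endothelial cells held 0 to 2 UMIs of Pdgfra per library (edgeR adjusted p = 2.77e-07 against fibroblasts). Macrophages held 0.691 to 3.44 CPM, 62.1-fold below fibroblasts (log2 -5.96, SE 0.28, edgeR adjusted p = 3.99e-10), and log2 -3.50 with cluster-based classes.

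Pdgfrb was the pericyte receptor and a second receptor of fibroblasts. Pericytes held 254 [222 to 289] CPM in E13.5 control 1, 237 CPM in the 15 cells of E13.5 control 2, 272 and 294 CPM in E14.5 controls, and 179 [156 to 204] and 269 CPM in the LOF libraries. E13.5 LOF was the lowest of the 6. The gene was not used to choose pericytes. Fibroblasts held 54.1 and 52.5 CPM in E13.5 controls, 57.7 and 62.2 CPM in E14.5 controls, and 50.3 and 66.5 CPM in LOF libraries, a narrow range in which control 2 did not stand apart. Pericytes were 4.46-fold above fibroblasts (log2 2.16, SE 0.08, edgeR adjusted p = 1.26e-11). Endothelial cells held 0 to 1 UMIs of Pdgfrb per library and were below pericytes (edgeR adjusted p = 3.71e-17), in a comparison where 38.3% of genes passed. In that same comparison Pdgfa was 13.7-fold lower in endothelial cells (log2 -3.78, SE 0.26, edgeR adjusted p = 1.04e-11, and log2 -2.71 with cluster-based classes), and the other 4 members were left out by the filter on low counts. Fibroblasts, which outnumber pericytes, held 76.4% of Pdgfrb UMIs and pericytes 13.1%.

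Mast cells also carried Pdgfrb, at 34.3 and 22.0 CPM in E13.5 controls, 28.7 and 20.3 CPM in E14.5 controls, and 24.0 and 33.7 CPM in the LOF libraries. Macrophages of the same libraries held 0 to 4.15 CPM, below the whole mast cell range, and mast cells carried a median of 1 UMI of the 3 fibroblast collagens. Keratinocytes were 55.4-fold and macrophages 36.0-fold below fibroblasts in Pdgfrb (log2 -5.79 and -5.17, SE 0.13 and 0.33, edgeR adjusted p = 3.29e-08 and 9.87e-09). Muscle cells were 11.2-fold and Schwann cells 9.99-fold below them (log2 -3.49 and -3.32, SE 0.20 and 0.16, edgeR adjusted p = 6.09e-07 and 6.42e-10). With doublets removed these were log2 -4.42 and -4.39, and with cluster-based classes keratinocytes were at -5.15 and macrophages at -3.45.

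**Figure D3:**
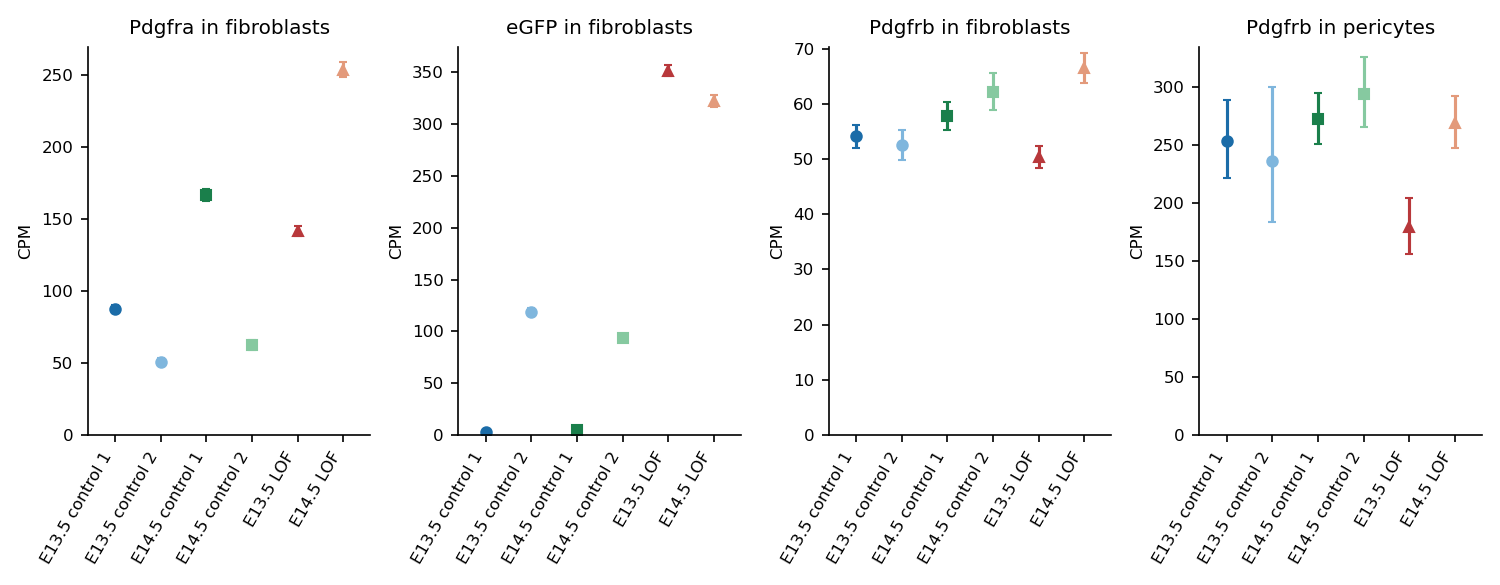
Level (CPM, vertical axis, from 0) of Pdgfra, the reporter eGFP and Pdgfrb in fibroblasts and of Pdgfrb in pericytes, in the 6 libraries (horizontal axis), with exact 95% Poisson intervals as bars. Pdgfra spans 51.0 to 253 CPM and eGFP 3.00 to 351 CPM in fibroblasts, while Pdgfrb stays between 50.3 and 66.5 CPM there.

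Fibroblasts with and without eGFP were compared for Pdgfra. In the LOF libraries of E13.5 and E14.5 the level was 146 and 253 CPM with a UMI of eGFP, and 137 and 255 CPM without one. In E13.5 control 2 it was 58.8 against 39.1 CPM, with median depths of 8878 and 7148.5 UMIs, and in E14.5 control 2 65.8 against 58.8 CPM. Both values of each control 2 library stayed below control 1 of its stage. For Pdgfrb, fibroblasts with and without a UMI of Pdgfra held Pdgfrb at 53.4 and 55.0 CPM in E13.5 control 1 and at 59.0 and 53.2 CPM in E14.5 control 1. Pdgfd was lower in fibroblasts with a Pdgfra UMI than without in 6 of 6 libraries, at 3.65 to 7.34 against 6.18 to 13.5 CPM. The same held for a Pdgfrb UMI in 6 of 6 libraries. In control 1 Pdgfd was at 5.21 against 6.03 CPM at E13.5 and 4.72 against 7.99 CPM at E14.5 in that split. Fibroblasts with a Pdgfra UMI were also deeper, at a median of 10593 against 9275 UMIs in E13.5 control 1. What depth added to these Pdgfd differences was not tested.

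Fibroblast clusters differed in the members, and the differences recurred where a cluster was filled by several libraries. Clusters were built from the same cells, so these levels are a description. Clusters 7, 9 and 15, whose leading genes include Crabp1 and Lum, filled by control 1 and LOF of E14.5, held Pdgfra at 153, 200 and 201 CPM in E14.5 control 1 and 291, 299 and 330 CPM in E14.5 LOF. Cluster 4, led by Nrk, Clec3b and Col14a1, held 112 and 187 CPM in those libraries. The same cluster 4 was the high one for Pdgfd, at 23.7 and 21.3 CPM, against 0.920 to 3.31 and 0.356 to 4.69 CPM in clusters 7, 9 and 15. It was also the low one for Pdgfrb, at 32.5 and 31.8 CPM against 58.6 to 79.0 and 76.3 to 88.5 CPM. Cluster 26, led by Agtr2, Nov and Dpt and filled by E14.5 control 2, had Pdgfd at 24.1 CPM and cluster 10 at 18.7 CPM, against 2.59 CPM in cluster 3 of that library.

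At E13.5, Pdgfc divided the fibroblasts. Cluster 6, whose leading genes include Sfrp2 and Meox1, held 34.0 CPM in E13.5 control 1 and 25.7 CPM in E13.5 LOF. Cluster 19, led by C1qtnf3 and Sfrp2, held 36.3 and 30.0 CPM in E13.5 controls 1 and 2. Clusters 0, 1, 5 and 10 of the same 3 libraries lay at 2.31 to 11.2 CPM. Cluster 5, led by Crabp1, Nrgn and Twist2, was the lowest of them in Pdgfc and had Pdgfd at 0 to 0.648 CPM, while its Pdgfra (111, 76.0 and 200 CPM) was the highest of clusters 0, 1, 5, 6, 10 and 19 in each E13.5 library that held them. Its Pdgfa was at 3.71, 3.70 and 2.93 CPM in E13.5 controls 1 and 2 and E13.5 LOF. In cluster 0 Pdgfa was at 24.25, 14.6 and 10.7 CPM in the same order. Cells of cluster 21, led by Acta2, Gucy1a3 and Rgs5, that passed the fibroblast gate held Pdgfrb at 202 CPM in E14.5 LOF. Condensate-like fibroblasts, with at least 6 UMIs of hair condensate genes such as Sox2 and Sox18, held Pdgfrb at 76.8, 77.5 and 140 CPM in E14.5 controls 1 and 2 and E14.5 LOF, from 132, 32 and 60 cells, against 56.9, 62.0 and 65.3 CPM in the other fibroblasts.

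**Figure D4:**
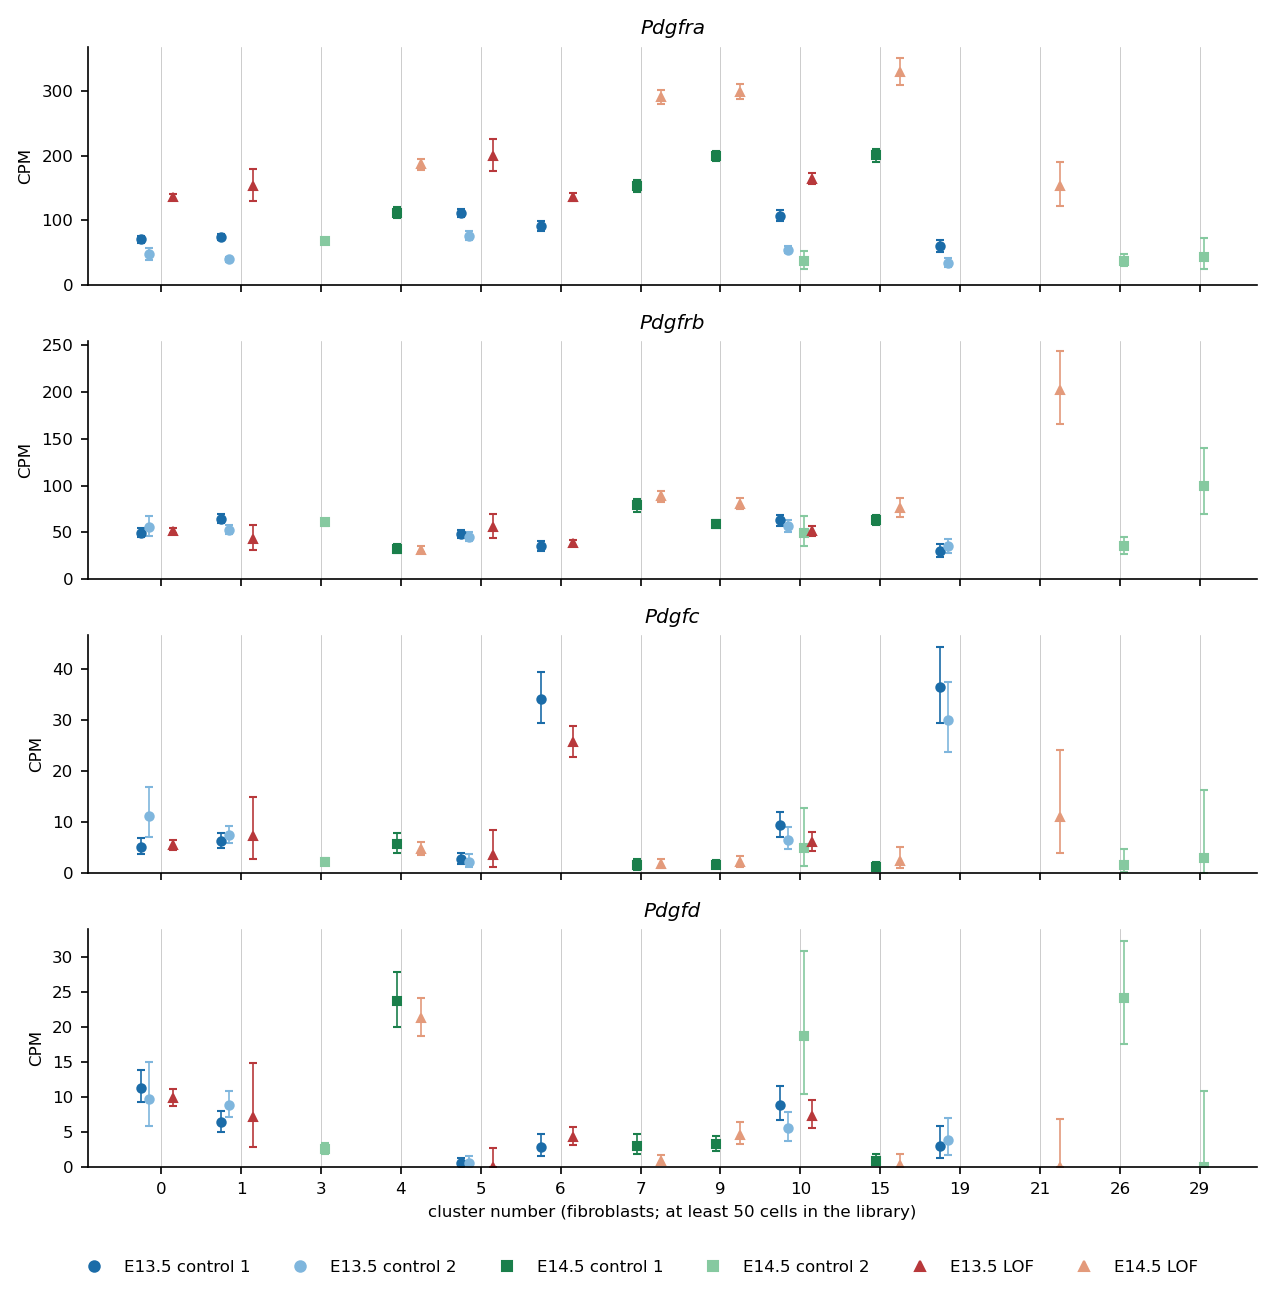
Level (CPM, vertical axis) of Pdgfra, Pdgfrb, Pdgfc and Pdgfd in fibroblasts by cluster number (horizontal axis), each point 1 library with at least 50 fibroblasts of the cluster and bars exact 95% Poisson intervals. Clusters 6 and 19 stand out for Pdgfc at 25.7 to 36.3 CPM, and clusters 4 and 26 for Pdgfd at 21.3 to 24.1 CPM.

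The order of classes was tested between neighbours, by median CPM over libraries, with an exact two-sided permutation test paired by library. None of 48 neighbour pairs could pass 0.05 after Benjamini-Hochberg adjustment, since the smallest exact p is 0.03125 with 6 pairs and 0.0625 with 5. The smallest adjusted p in this permutation test was 0.167. The order was also taken from the same values, so the test cannot decide it. Ranges over libraries did not overlap between keratinocytes and muscle cells for Pdgfa (medians 499.5 and 209.9 CPM), between pericytes and fibroblasts for Pdgfa, Pdgfd and Pdgfrb, between muscle cells and pericytes for Pdgfc, between pericytes and keratinocytes for Pdgfb, and between fibroblasts, mast cells and Schwann cells for Pdgfrb. Nor did ranges overlap between Schwann and muscle cells for Pdgfd (medians 3.19 and 0.69 CPM). They did overlap between muscle and Schwann cells for Pdgfa, between keratinocytes and muscle cells for Pdgfc, between endothelial cells and fibroblasts for Pdgfd, between endothelial and muscle cells for Pdgfb (endothelial cells higher in 5 of 6 libraries), and between fibroblasts and pericytes for Pdgfra.

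The stage comparison asks what differs in skin between E13.5 and E14.5 in the libraries labelled control. Pdgfc had lower levels at E14.5 in the keratinocytes, muscle cells and fibroblasts of these libraries, in no class past the test. In fibroblasts it was at 10.9 and 9.0 CPM in E13.5 controls and 3.62 and 2.86 CPM in E14.5 controls, and at 10.6 and 3.61 CPM in the LOF libraries. The 3 E13.5 libraries did not overlap the 3 E14.5 libraries in any of these classes. How many of all genes separated in this way was not counted. In the edgeR stage fit of fibroblasts, 2563 of 14360 genes had an unadjusted p under 0.05. Clusters 6 and 19, the fibroblast clusters high in Pdgfc at E13.5, held only 1 to 4 cells in each E14.5 library. What this change of cluster makeup added to the fibroblast difference was not tested. The E14.5 minus E13.5 difference in controls was log2 -1.59 (SE 0.27, edgeR adjusted p = 0.0777) in fibroblasts, -0.997 (SE 0.21, edgeR adjusted p = 0.118) in keratinocytes and -1.25 (SE 0.27, edgeR adjusted p = 0.122) in muscle cells. None passed 0.05, where 0.23%, 0.241% and 0.389% of genes tested did.

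The Pdgfc difference was past 0.05 in 7, 7 and 5 of 13 alternatives in fibroblasts, keratinocytes and muscle cells, and in the same direction in all of them. The alternatives named below also called more genes than the main fit, by the counts in the closing section on processing. Passing in them is therefore not particular to Pdgfc. DESeq2 gave adjusted p = 7.76e-07, 6.38e-06 and 0.000114. Without the control 2 libraries, in E13.5 and E14.5 control 1 and LOF, edgeR gave adjusted p = 0.00108, 1.88e-05 and 3.57e-05, but there stage and inferred batch cannot be told apart. With inferred batch and genotype as terms over all 6 libraries, edgeR gave adjusted p = 0.0234, 0.00193 and 0.0151, but in that fit the stage difference rests on the control 2 pair alone, 1 library per stage. Leaving out E14.5 control 2 gave adjusted p = 0.0117, 0.0298 and 0.00393, and leaving out E14.5 control 1 gave 0.0366 in fibroblasts, by edgeR. Within that pair Pdgfc was 117 and 57.6 CPM in keratinocytes, 85.8 and 41.1 CPM in muscle cells and 9.0 and 2.86 CPM in fibroblasts.

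The size of the Pdgfc difference was compared between keratinocytes and fibroblasts. The interaction, the stage difference in keratinocytes minus that in fibroblasts, was log2 0.59 (SE 0.14, edgeR adjusted p = 0.016), in a comparison where 11.4% of genes passed. It was lost without E13.5 control 2 (adjusted p = 0.0514), E14.5 control 1 (0.0794) or E14.5 control 2 (0.0771), with values of 0.54 to 0.61, and was not run without both control 2 libraries. The same test for Pdgfa gave log2 -0.08 (SE 0.15, edgeR adjusted p = 0.789).

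**Figure D5:**
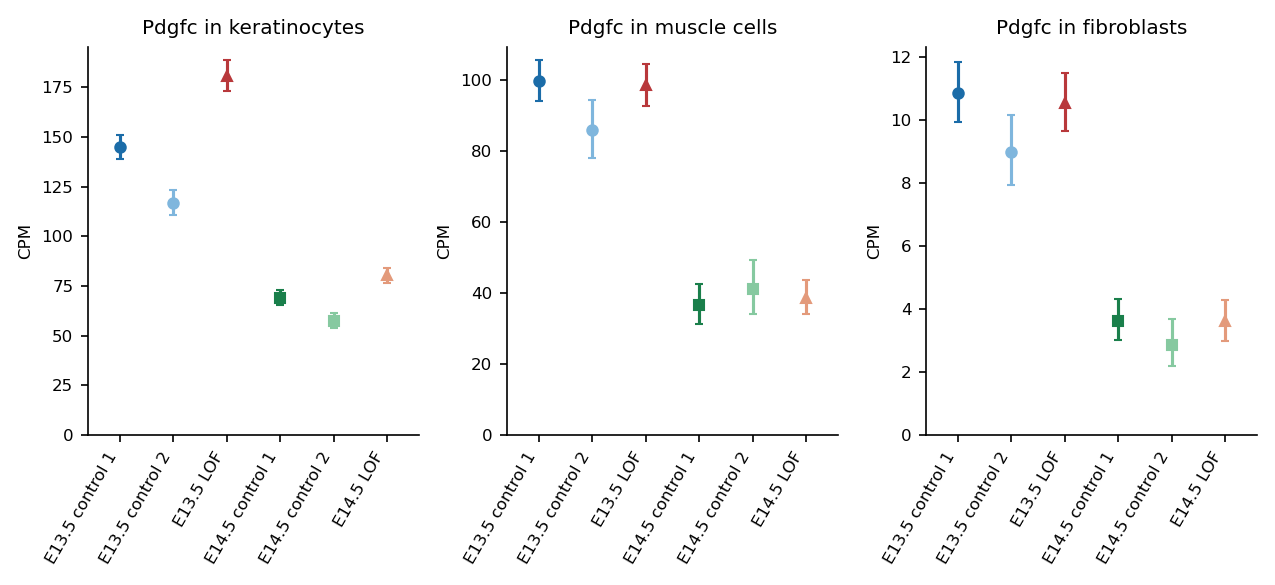
Level of Pdgfc (CPM, vertical axis, from 0) in keratinocytes, muscle cells and fibroblasts of the 6 libraries (horizontal axis), with exact 95% Poisson intervals as bars. In each class the 3 E14.5 libraries lie below the 3 E13.5 libraries, at 57.6 to 80.3 against 117 to 181 CPM in keratinocytes.

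No member passed between stages. Pdgfra in fibroblasts had a difference of log2 0.72 (SE 0.46, edgeR adjusted p = 0.435), which was -0.02 without E14.5 control 1 and 1.201 without E14.5 control 2. Without both control 2 libraries it was 0.86 (edgeR adjusted p = 0.000812). In that fit many more genes passed than in the main fit, and inferred batch and stage cannot be told apart. Pdgfrb in fibroblasts differed by log2 0.21 (SE 0.23, edgeR adjusted p = 0.652), Pdgfa by 0.09 (SE 0.31, 0.897) and Pdgfd by 0.03 (SE 0.27, 0.965), none of which shows equality. Without both control 2 libraries Pdgfrb was at 0.22 there (edgeR adjusted p = 0.116). In keratinocytes Pdgfa differed by log2 -0.03 (SE 0.21, edgeR adjusted p = 0.952), and in muscle cells by 0.54 (SE 0.26, edgeR adjusted p = 0.449). In muscle cells Pdgfb differed by log2 0.68 (SE 0.37, edgeR adjusted p = 0.491) and Pdgfra by -0.49 (SE 0.46, edgeR adjusted p = 0.69). Pdgfb in endothelial cells differed by log2 0.19 (SE 0.72, edgeR adjusted p = 0.959), in a comparison where edgeR called 0 of 6087 genes (0%, 468 at an unadjusted p under 0.05, and 9 by DESeq2). No stage test was made in pericytes, because E13.5 control 2 held 15.

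The genotype comparison asks what differs between LOF and control skin at matched stage. In fibroblasts Pdgfra averaged 198 CPM over the 2 LOF libraries and 91.8 CPM over the 4 control libraries. The difference with stage as a term was log2 1.06 (SE 0.35, edgeR adjusted p = 0.476), and both LOF libraries exceeded both controls of their stage. edgeR called 0 of 15468 genes in this comparison (0%, 1280 at an unadjusted p under 0.05, and 576 by DESeq2). DESeq2 gave Pdgfra an adjusted p = 0.0443. With inferred batch as a term the difference was log2 0.67 (edgeR adjusted p = 0.0459), and without the control 2 libraries it was 0.67 (edgeR adjusted p = 0.041), from 142 against 87.4 CPM at E13.5 and 253 against 166 CPM at E14.5. Both fits rest on the same contrast of LOF with control 1, since the control 2 pair holds no LOF library. Over all 14 alternatives it was 0.67 to 1.37, and the rest did not pass (adjusted p up to 1).

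Pdgfd in fibroblasts was at 7.76 and 8.54 CPM in LOF and 5.21 to 6.48 CPM in controls. The difference was log2 0.43 (SE 0.18, edgeR adjusted p = 0.597), and 0.44 without the control 2 libraries (edgeR adjusted p = 0.174). Pdgfrb in fibroblasts differed by log2 -0.03 (SE 0.16, edgeR adjusted p = 0.965), Pdgfa by -0.31 (SE 0.24, 0.793) and Pdgfc by 0.07 (SE 0.18, 0.911). In keratinocytes Pdgfc had a difference of log2 0.39 (SE 0.14, edgeR adjusted p = 0.987), and each LOF library exceeded both controls of its stage. Without the control 2 libraries it was 0.28 (edgeR adjusted p = 0.354). Pdgfa in keratinocytes differed by log2 0.02 (SE 0.15, edgeR adjusted p = 0.994). edgeR called 0 of 13219 genes in keratinocytes (0%, 235 at an unadjusted p under 0.05, and 15 by DESeq2).

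Genes around the pathway were read in 3 lists. Of the list of PDGF processing, binding and co-receptor genes, 1 of 12 tested passed between stages in fibroblasts and 11 did not, with a median of log2 0.37 against 0.03 over all genes tested. It was Plaur, the receptor that holds urokinase at the cell surface, at 1.58 and 1.09 CPM in E13.5 controls and 13.4 and 15.8 CPM in E14.5 controls (log2 3.47, SE 0.34, edgeR adjusted p = 0.0436). The LOF libraries stood at 1.40 and 10.8 CPM, on the side of their stage. The call was lost with doubled gates, doublets removed or cluster-based classes (edgeR adjusted p = 0.0549, 0.0632 and 0.0729), where edgeR called 0 genes in this comparison. None of 16 receptor signalling genes and none of 12 tested class III receptor and VEGF family genes passed in fibroblasts, with medians of log2 0.35 and 0.29. In keratinocytes none of 11, 16 and 7 tested genes of the 3 lists passed between stages. In muscle cells 1 of 10 processing genes passed, Plat (named after its values were seen), the tissue plasminogen activator tPA known to activate PDGF-C, which fell from a mean of 11.48 CPM to 1.68 CPM (log2 -2.75, SE 0.42, edgeR adjusted p = 0.0481). The same 3 alternatives lost this call too (edgeR adjusted p = 0.0869, 0.0691 and 0.0888). Without the control 2 libraries the Plat difference was log2 -1.78 (edgeR adjusted p = 0.00173), in a fit where many more genes passed than in the main fit. Between genotypes none of 13, 16 and 12 passed in fibroblasts and none of 13, 16 and 8 in keratinocytes.

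Between classes, 9 of 12 processing and co-receptor genes tested were lower in keratinocytes than in fibroblasts, 1 was higher and 2 did not pass, so that 83.3% passed against 75.1% of all genes, with a median of log2 -2.75 against -0.04. Named after their values were seen, the co-receptor Nrp1 averaged 5.19 CPM in keratinocytes and 332 CPM in fibroblasts, and Plat 4.48 and 48.8 CPM. The 1 higher gene was Pdap1, at 407 against 362 CPM, and the 2 that did not pass were the convertases Furin and Pcsk6. In endothelial cells 2 of 13 were higher than in fibroblasts (Plau and Nrp2), 4 lower (Pcsk5, Plat, Pdgfrl and Lrp1) and 7 did not pass, 46.2% called against 48.9% of all genes. These were also named after their values were seen. Of 16 signalling genes, 4 were higher in keratinocytes (Src, Cbl, Ptpn2 and Sos1), 7 were lower and 5 did not pass, with a median of log2 -0.09. In endothelial cells 6 of the 11 tested class III receptor and VEGF family genes were higher than in fibroblasts and 4 lower. Examples are the VEGF receptor Kdr at 427 against 1.75 CPM and the VEGF-D gene Figf at 0.954 against 66.6 CPM, both named after their values were seen.

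Genes whose pattern over classes was most like each member were found by Pearson's r of log2(CPM + 1) over 55 sums of a class in a library, from 11 classes. These sums share libraries and depth, and r is a description. Pdgfra was most like Angptl1 (0.93), Twist1 (0.89) and Wnt5a (0.89), and Pdgfrb like Ednra (0.94), Creb3l1 (0.88) and Lhfp (0.83). Pdgfa was most like Ddr1 (0.86), Vgll3 (0.84) and Fst (0.80), Pdgfb like Hey1 (0.87), Myzap (0.83) and Palmd (0.82), Pdgfc like Mrpl50 (0.83), Hdac11 (0.83) and Hoxa7 (0.82), and Pdgfd like Ldb2 (0.91), Hspa12b (0.89) and Prkcdbp (0.88).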

How the data were processed

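The deposited files hold raw UMI counts per gene and cell barcode, made by the authors from 10x Genomics 3′ v2 libraries. Per the submitters' processing notes, Cell Ranger, Seurat and GRCm38 (mm10) were used, with no versions given in the sources used here. Gene symbols are those of the deposited gene table. UMIs of genes that overlap a member were few: 518 for 6330403L08Rik (antisense to Pdgfa), 67 for Gm42802 and 7 for Gm16000. The strand setting of counting is not given in the sources used here.

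A barcode was kept if it had 1000 or more UMIs, 500 or more genes and no more than 10% of UMIs from mitochondrial genes. A cell that passed the gate of more than 1 class was set aside as mixed, with these exceptions. Cells past the fibroblast gate and that of pericytes, muscle cells, Schwann cells or chondrocytes stayed in the latter class. Cells past the mast cell and macrophage gates were counted as mast cells, and those past the melanoblast and Schwann gates as melanoblasts. Doublets were marked in each library (4.68% to 7.14% of cells) and removed only in an alternative. Pericytes needed at least 4 UMIs from at least 3 of 6 markers. Counts were summed per class and library and tested with edgeR 4.0.16 (quasi-likelihood, TMM, filterByExpr) in classes of at least 20 cells in a library, and p-values were adjusted over all genes tested with a threshold of 0.05. Stage was tested over the 4 control libraries, genotype over all 6 with stage as a term, and classes with the library as a block. Clusters came from the Leiden method at resolution 1 on 30 principal components of 2000 genes. Alternatives were DESeq2 1.42.0, other size factors, no filter, doubled gates, cluster-based classes, a replicate block, inferred batches and leaving out libraries. The fits were tested on simulated data with 200 genes changed by about log2 1.0, at an assumed spread between libraries. Stage fits recovered 5.5%, 17.5%, 5.0% and 6.0% of them in fibroblasts, keratinocytes, muscle cells and endothelial cells. Genotype fits recovered 33.0% in fibroblasts and 38.0% in keratinocytes, and the interaction 0.0%. Class contrasts recovered 52.5% to 94.5%. A stage or genotype difference that did not pass therefore does not show equality. Nothing states that replicates are separate litters, so p-values measure only the spread between these libraries. The 6 members and the 3 gene lists were chosen with earlier results of these data known. Beyond the members, genes of the lists were to be named where they passed in the stage or genotype comparison of fibroblasts or keratinocytes, up to 6 per list. Only Plaur met this rule. The other list genes, from muscle cells and class contrasts, were named after their values were seen.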

Additional observations from a re-analysis of the deposited data

Results flagged for a closer look

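The Pdgfc stage difference was smaller in keratinocytes than in fibroblasts in the main fit, although it passed in neither class alone. The test of the difference itself gave log2 0.592 (SE 0.14, edgeR adjusted p = 0.016) for keratinocytes minus fibroblasts. The fibroblast clusters high in Pdgfc at E13.5 were nearly absent at E14.5, and what cluster makeup added was not tested. The call was lost without E13.5 control 2, E14.5 control 1 or E14.5 control 2 (adjusted p = 0.0514, 0.0794 and 0.0771).

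The reporter eGFP appeared in 2 libraries labelled WT. Its level in fibroblasts was 118.8 CPM in E13.5 control 2 and 93.35 CPM in E14.5 control 2, against 3.00 and 5.28 CPM in the other control of each stage. The same 2 libraries held the lowest Pdgfra of the 6 in fibroblasts, at 51.0 and 62.4 CPM. The reporter's tdTomato was also found in libraries labelled WT, at a mean of 933 CPM in keratinocytes of E13.5 controls and 173 CPM in those of E14.5 controls.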

How the results depend on the processing

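Counts of genes called depended strongly on the fit, and the cause was not tested. Between stages in fibroblasts edgeR called 33 genes, against 1989 by DESeq2, 97 with other size factors, 638 with no low-count filter, 0 with doubled gates, without doublets or with cluster-based classes, 1492 with inferred batches, 8941 without the control 2 libraries, and 376 to 3604 leaving out 1 library. In keratinocytes the 30 became 909, 50 and 766 with DESeq2, other size factors and no filter, 419 with cluster-based classes, 1428 with inferred batches, 7570 without the control 2 libraries and 60 to 2219 leaving out 1 library. In muscle cells the 42 became 340, 73, 639, 15 (doubled gates), 12 (no doublets), 6 (cluster-based classes), 347, 5636 and 49 to 2087. In endothelial cells the 0 became 9 with DESeq2, 39 with no filter, 96 with inferred batches, 2311 without the control 2 libraries and 5 to 173 leaving out 1 library. Between genotypes in fibroblasts the 0 became 576 with DESeq2, 2 with other size factors, 6 with no filter, 63 with inferred batches, 180 without the control 2 libraries and 0 to 1 leaving out 1 library, and in keratinocytes 15 with DESeq2 and 18 with inferred batches or without the control 2 libraries. The interaction count of 1652 became 2683 with cluster-based classes. With a replicate block the stage counts were 1199, 1127, 66 and 38 in fibroblasts, keratinocytes, muscle and endothelial cells. The block pairs libraries by number only: deviations of same-numbered controls from their stage mean correlated at 0.399, 0.416 and 0.348 over genes in the first 3 classes, with 2 pairs. The blocked Pdgfc stage difference had adjusted p = 0.0099, 0.00467 and 0.0857 in these classes, by edgeR.

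Leaving out 1 library can leave a group with 1, which is then assumed to vary like the other groups. Directions near 0 turned. On the log2 scale, Pdgfa between stages was -0.07 in fibroblasts and 0.077 in keratinocytes with doubled gates, 0.049 in keratinocytes with inferred batches and -0.22 in fibroblasts without the control 2 libraries, and -0.302 to 0.398 and -0.198 to 0.106 leaving out 1 library. Pdgfd between stages in fibroblasts was -0.087 with doubled gates, -0.094 with inferred batches, and -0.061 to 0.097 leaving out 1 library, where Pdgfra was -0.018 to 1.201. Pdgfb was -0.43 in muscle cells without the control 2 libraries, and in endothelial cells -0.001 with DESeq2, -0.048 with doubled gates, -0.161 with a replicate block, -0.533 with inferred batches and -1.67 to 1.25 leaving out 1 library. Between genotypes in fibroblasts Pdgfrb was 0.005 without doublets, 0.063 with inferred batches and without the control 2 libraries, and -0.122 to 0.067 leaving out 1 library, and Pdgfc -0.013 and -0.012 with inferred batches and without the control 2 libraries. Pdgfa between genotypes in keratinocytes was -0.088 to 0.125 leaving out 1 library. With cluster-based classes Pdgfa against fibroblasts was 0.278 in endothelial cells and 0.786 in macrophages, and its interaction was 0.19 with doubled gates and -0.282 to 0.078 leaving out 1 library. Pdgfc in Schwann cells against fibroblasts was -0.138 to 0.503. Of 32 member differences between classes past the threshold, 27 kept direction and side in every alternative run. No stage test in pericytes was run, nor its alternatives.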
